A study of Mus musculus with 8 samples.

Results

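The genes described here are Ccr7, S1pr1, Cd69, Cxcr3, Cxcr4, Ccr8, Cxcr6 and Ccr9, which encode receptors that steer T cells into, within and out of lymph nodes and tissues, and CD69, which holds a lymph node exit receptor inside the cell. They were chosen by name, and all 8 were among the 24976 gene symbols of the count table. Bulk RNA was sequenced from naive CD8+ T cells of mice after culture with anti-CD3 (2 μg/ml), anti-CD28 (1 μg/ml) and IL2 (10 ng/ml). One genotype, labelled NR4aDKO and dKO, carried Cd8Cre, a Cre recombinase under Cd8 control, with Nr4a1 and Nr4a2 both flox/flox; the other was WT, from littermates. There were 2 libraries in each of 4 groups, dKO at 48 h, WT at 48 h, dKO at 24 h and WT at 24 h. No source used here gives the ages of the mice or says whether the 2 libraries of a group came from separate mice, so p-values measure only the spread between these libraries.

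Naive and central memory T cells enter lymph nodes from the blood by following the chemokines CCL19 and CCL21 through CCR7. They leave along a gradient of sphingosine 1-phosphate sensed by S1PR1. After stimulation CD69 is made within hours, binds S1PR1 and removes it from the cell surface, and loss of the transcription factor KLF2 lowers the transcription of S1pr1. Activated CD8+ T cells instead acquire receptors for inflamed or barrier tissue, such as CXCR3 for interferon-induced chemokines, CXCR6 for CXCL16, CCR8 for CCL1 and CCL8, and CCR9 for the gut chemokine CCL25, while CXCR4 follows CXCL12.

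Total counts were 6954913 and 7911611 for dKO at 48 h, 7018314 and 21686236 in WT at 48 h, 8278058 and 5000952 for dKO at 24 h, and 6900893 and 5824552 in WT at 24 h. The targeted genes did not check the labels. Nr4a2, in counts per 1e6 counts (CPM, scaled by TMM factors), ranged over 75.5 to 143 in the 4 libraries labelled dKO, against 24.6 to 59.9 in WT. Nr4a1 ranged over 506 to 669 CPM, against 276 to 881 CPM in WT. For this reason the text speaks of libraries labelled dKO. Xist stood at 0.719 to 1.80 per 1e6 total counts in the libraries labelled dKO and at 323 to 805 in WT, and 4 Y-linked genes summed to 131 to 175 against 1.28 to 1.75. Every genotype difference below is therefore also a difference between libraries with male-type and female-type transcripts, and the effects of these cannot be told apart. Genes with symbols beginning Rpl or Rps took 7.04% of counts in WT 48 h replicate 2, against 11.7% to 13.4% in the 6 libraries of the other groups. The summed level of 5 CD8 T cell markers was 1603 to 1736 per 1e6 total counts in the libraries labelled dKO and 1077 to 2180 in WT. That of 5 CD4 or regulatory T cell markers was 426 to 507 in the libraries labelled dKO and 432 to 540 in WT. Most of it was Il2ra, at group means of 381 to 508 CPM, and Ctla4 was at 15.6 to 87.1 CPM. Foxp3 was at 1.34 to 2.60 CPM in libraries labelled dKO and 2.90 to 3.51 CPM in WT. Zbtb7b was at 0.141 to 1.04 CPM, and Cd4 had 0 to 2 counts per library. Fewer cells of a type and less RNA per cell cannot be told apart in bulk samples.

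More of these genes were called with time, within a genotype, than between genotypes at either time. Of the 8 genes, 7 passed the filter on low counts, and Cxcr4 did not. Between 48 h and 24 h, Ccr8, Cxcr6 and Cd69 fell in the libraries labelled dKO, 3 of the 7 tested, where 3.63% of all tested genes were called, 1.76% higher and 1.88% lower. In WT, Ccr8, Cxcr6 and Ccr7 fell, again 3 of 7, where 11.4% of all tested genes were called, 7.87% higher and 3.5% lower. Between genotypes Cxcr3 rose in the libraries labelled dKO at 48 h, 1 of 7, beside a background of 11.2% called, 3.19% higher and 8.04% lower. Over both times Cxcr3 and Cd69 rose, 2 of 7, beside 7.8% called, 2.28% higher and 5.52% lower. At 24 h 0 of 7 were called by edgeR and 0 by DESeq2, beside 0.432% of all tested genes called in edgeR, 0.361% higher and 0.0706% lower. An unadjusted p under 0.05 in edgeR was reached by 3 of the 7 (Ccr7, Cd69 and Cxcr3) and by 889 of the 12742 tested genes. The genotype by time interaction called 0 of the 7 genes in edgeR and DESeq2, with 0 at an unadjusted p under 0.05 in either, and 0 of 12742 genes in edgeR (1575 at an unadjusted p under 0.05) and 0 in DESeq2 (914). All adjusted p-values of genes below come from edgeR's quasi-likelihood test with Benjamini-Hochberg adjustment over the 12742 tested genes, and a gene is said to rise or fall where this is below 0.05.

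**Figure D1:**
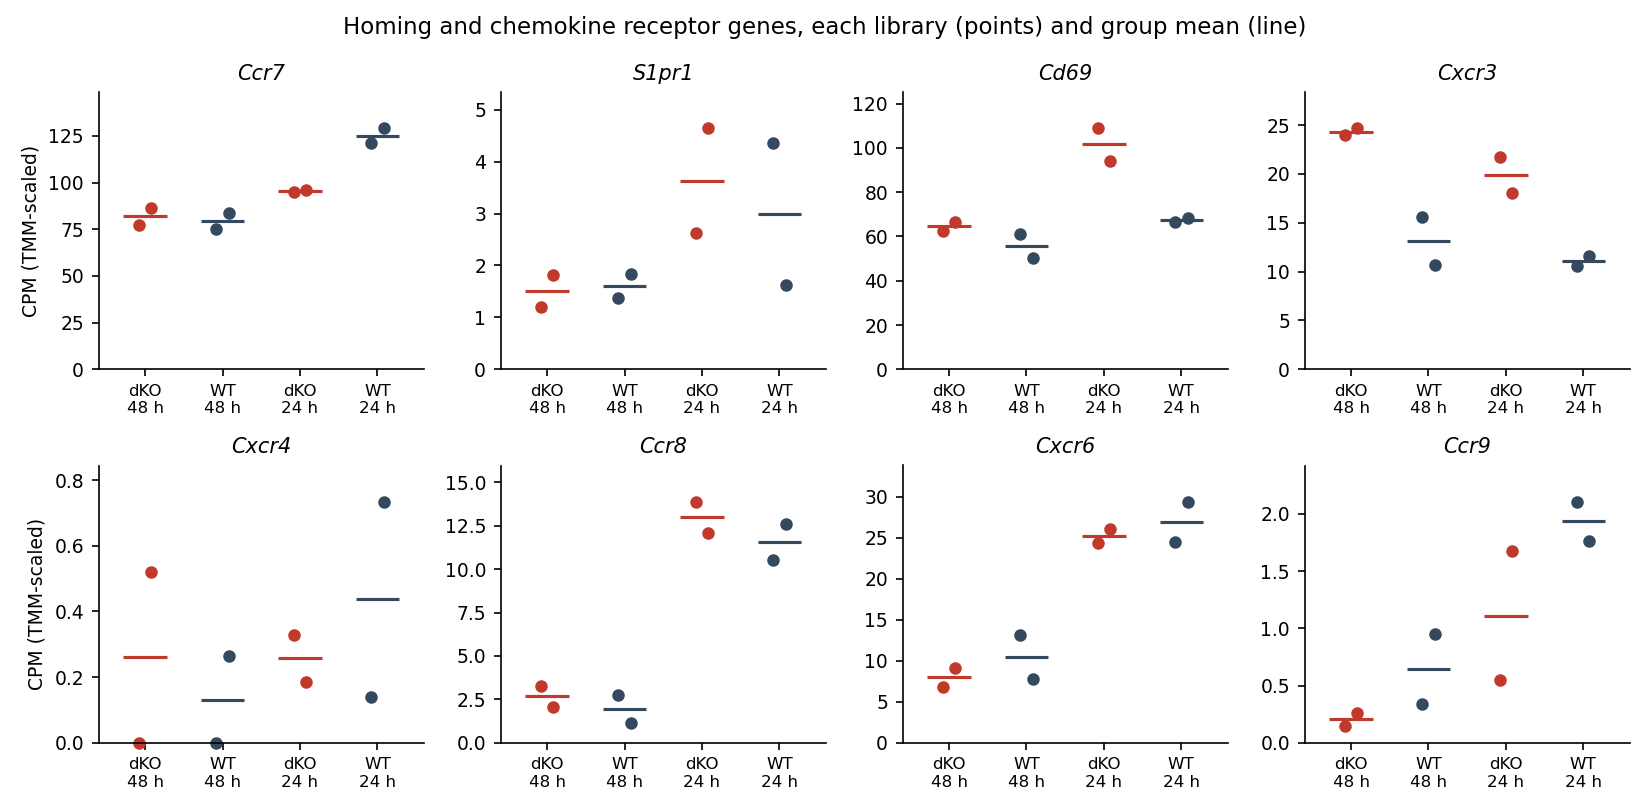
CPM (TMM-scaled, linear axis from 0) of the 8 genes in each library, as points, with group means as lines, for dKO and WT at 48 h and at 24 h (2 libraries a group). Ccr8 and Cxcr6 lie lower at 48 h than at 24 h in both genotypes, and Cxcr3 lies higher in all 4 libraries labelled dKO than in all 4 WT libraries. The shares of all tested genes that separate in these ways over the 8 libraries were not counted.

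**Figure D2:**
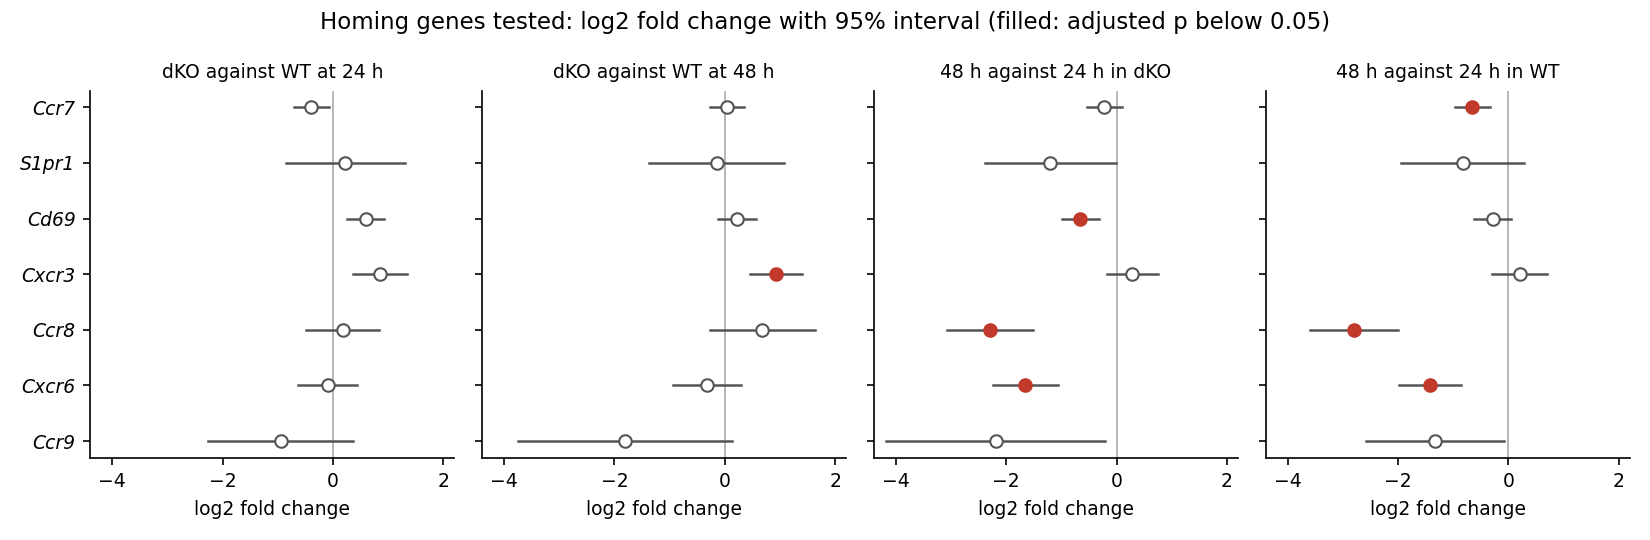
Log2 fold changes of the 7 tested genes in 4 comparisons, with 95% intervals from the edgeR fit; filled points have an adjusted p below 0.05. The calls are Cxcr3 for genotype at 48 h, and Cd69, Ccr8, Cxcr6 (dKO) and Ccr7, Ccr8, Cxcr6 (WT) for time; the points of Ccr9 at 48 h and for time in dKO rest on 3 counts.

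Ccr8 and Cxcr6 fell with time in both genotypes. CCR8 marks skin-homing and some regulatory T cells, and CXCR6 is a receptor of tissue-resident and tumour-infiltrating CD8+ T cells. Ccr8 (chromosome 9: 120092114 to 120094906, GRCm38, plus strand) was at 3.27 and 2.08 CPM at 48 h in the libraries labelled dKO, against 13.9 and 12.1 CPM at 24 h. In WT it was at 2.73 and 1.16 CPM at 48 h, against 10.5 and 12.6 CPM at 24 h. All 4 libraries at 48 h lay below all 4 at 24 h, while the genotypes overlapped at each time. The log2 fold change of Ccr8 with time was -2.29 (SE 0.348, adjusted p = 0.00841) in the libraries labelled dKO and -2.80 (SE 0.359, adjusted p = 0.00253) in WT. Cxcr6 (chromosome 9: 123806475 to 123811760, plus strand) was at 6.85 and 9.09 CPM at 48 h in the libraries labelled dKO, against 24.4 and 26.0 CPM at 24 h. In WT it was at 13.2 and 7.79 CPM at 48 h, against 24.5 and 29.4 CPM at 24 h. For this gene too the times separated in both genotypes and the genotypes did not; of all tested genes, 66.3% in the libraries labelled dKO and 47.1% in WT did not overlap between the times. The log2 fold change of Cxcr6 with time was -1.65 (SE 0.264, adjusted p = 0.0101) in the libraries labelled dKO and -1.42 (SE 0.253, adjusted p = 0.00529) in WT. Both calls in the libraries labelled dKO were lost when any 1 of their own 4 libraries was left out (adjusted p = 0.0573 to 0.146 for Ccr8 and 0.0943 to 0.158 for Cxcr6). In WT the call of Cxcr6 was lost without WT 24 h replicate 2 (0.0745), and that of Ccr8 was kept in all 8 such fits; with only the WT libraries fitted, both were lost (0.0632 for Ccr8 and 0.0663 for Cxcr6).

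The genotype difference of Ccr8 was 0.17 at 24 h (95% interval -0.48 to 0.83, adjusted p = 0.939) and 0.68 at 48 h (-0.27 to 1.63, adjusted p = 0.287) on the log2 scale. The value at 48 h rested on the WT libraries of that time: it was 1.17 (adjusted p = 0.0236) without WT 48 h replicate 1 and -0.041 (adjusted p = 0.969) without replicate 2. For Cxcr6 it was -0.10 at 24 h (-0.63 to 0.44, adjusted p = 0.959) and -0.32 at 48 h (-0.94 to 0.29, adjusted p = 0.43). Cxcr6 lies inside the span of Fyco1 on the opposite strand, with no shared exon in GENCODE M21. The use of strand in the counting is not given, so reads of the 2 genes may not be fully separated. Fyco1 had 482 counts over all libraries, against 1078 for Cxcr6, and its own log2 fold change with time was -0.91 in the libraries labelled dKO (adjusted p = 0.147) and -0.04 in WT (adjusted p = 0.953). Between genotypes at 48 h Fyco1 fell (-1.15, SE 0.32, adjusted p = 0.0477), and its part in the counts of Cxcr6 was not tested.

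The bases just upstream of the starts of Ccr8 and Cxcr6 are shown because these receptors fell together. Those of Cxcr3 are shown because it was the 1 gene of the 8 called between genotypes at 48 h. They come from the RefSeq promoter table (GRCm38.p6), are written 5′ to 3′ on the gene's strand, and end at the base before a GENCODE transcript start. Capitals mark matches, on either strand, to CACCC (bound by KLF factors) or GGAAA (the core of NFAT sites).
Ccr8, chr9:120091883-120092113, plus strand: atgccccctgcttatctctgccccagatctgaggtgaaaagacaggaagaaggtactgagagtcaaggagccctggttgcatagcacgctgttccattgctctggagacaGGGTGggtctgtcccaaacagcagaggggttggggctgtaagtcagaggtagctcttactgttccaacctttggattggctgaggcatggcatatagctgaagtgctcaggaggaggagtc
Cxcr6, chr9:123806227-123806474, plus strand: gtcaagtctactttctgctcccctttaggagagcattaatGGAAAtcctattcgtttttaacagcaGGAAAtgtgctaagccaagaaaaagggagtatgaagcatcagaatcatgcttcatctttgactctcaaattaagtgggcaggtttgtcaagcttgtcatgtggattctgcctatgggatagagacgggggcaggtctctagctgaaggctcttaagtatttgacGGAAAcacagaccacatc
Cxcr3, chrX:101734270-101734397, minus strand: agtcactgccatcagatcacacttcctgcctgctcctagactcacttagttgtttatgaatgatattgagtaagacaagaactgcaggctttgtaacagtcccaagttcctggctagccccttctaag

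Promoters were in the table for 5 of the 8 genes, each with 1 window (Cxcr3, Cxcr4, Ccr8, Cxcr6 and Ccr9). In the 250 bases before the RefSeq start, CACCC was found in Ccr8, Ccr9 and Cxcr4, 3 of 5 windows, and in 52.0% of 32851 windows of that length over all genes. GGAAA was found in Cxcr6 and Cxcr4, 2 of 5, and in 55.6% of all windows, with 3 matches in Cxcr6, at -210, -184 and -20 from the start. The NBRE, AAAGGTCA, to which NR4A receptors bind as monomers, was found in 0 of 5 windows and in 1.34% of all windows. The AP-1 site TGANTCA was in 0 of 5 and 6.75% of all, and the FOXO site TGTTTAC in 0 of 5 and 3.17% of all. No matches of different motifs overlapped in these windows. A match is a run of letters and does not show binding, and an absent match covers this window only.

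Cxcr3 was higher in the libraries labelled dKO. CXCR3 guides effector CD8+ T cells to sites where interferon gamma induces CXCL9, CXCL10 and CXCL11. The gene (chromosome X: 101731535 to 101734269, minus strand) was at 24.0 and 24.7 CPM in libraries labelled dKO at 48 h, against 15.5 and 10.6 CPM in WT. At 24 h it was at 21.8 and 18.0 CPM in the libraries labelled dKO, against 10.5 and 11.6 CPM in WT. The lowest library labelled dKO, at 18.0 CPM, lay above the highest WT library, at 15.5 CPM. Within a time, 44.9% of all tested genes at 24 h and 56.9% at 48 h did not overlap between genotypes. The share that separated over all 8 libraries was not counted. The log2 fold change was 0.93 at 48 h (SE 0.209, adjusted p = 0.0228), 0.85 at 24 h (SE 0.218, adjusted p = 0.204) and 0.89 over both times (SE 0.151, adjusted p = 0.0152). The difference between the 2 times was not called (interaction adjusted p = 0.925). With time Cxcr3 was not called in either genotype (log2 0.28, 95% interval -0.18 to 0.74, in the libraries labelled dKO, and 0.20, -0.29 to 0.70, in WT).

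Left-out libraries decided the Cxcr3 calls, while the log2 fold change stayed positive in each of these fits. The call at 48 h was lost without either dKO 48 h replicate (adjusted p = 0.14 and 0.191), without any 1 of the libraries at 24 h (0.0527 to 0.0543), and with only the 48 h libraries fitted (0.116). Over both times it was lost without any 1 library labelled dKO (0.0563 to 0.113) or WT 24 h replicate 1 (0.0687). The call at 24 h, absent in the fit of all libraries, was gained without WT 48 h replicate 1 or 2 (adjusted p = 0.00946 and 0.00938), with only the 24 h libraries (0.041) and with no filter (0.0346). Of 405 tested genes on X, 7 rose and 43 fell at 48 h in the libraries labelled dKO. That is 12.3% called and 1.73% higher, beside 11.2% called, 3.19% higher and 8.04% lower among all tested genes. The part of the sex-linked difference between the libraries in the level of Cxcr3 was not tested.

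The genotype differences of Ccr7 and Cd69, the genes of lymph node entry and retention, were larger in value at 24 h than at 48 h, and neither was called at either time. Ccr7 (chromosome 11: 99144196 to 99155077, minus strand) was at 94.7 and 95.9 CPM in libraries labelled dKO at 24 h, against 121 and 129 CPM in WT. At 48 h it was at 77.3 and 86.4 CPM in the libraries labelled dKO, against 75.2 and 83.5 CPM in WT. The groups did not overlap at 24 h, as in 44.9% of all tested genes, and overlapped at 48 h, where 56.9% of all tested genes did not. Its log2 fold change between genotypes was -0.39 at 24 h (SE 0.14, unadjusted p = 0.0191, adjusted p = 0.505) and 0.04 at 48 h (95% interval -0.27 to 0.36). With time Ccr7 fell in WT (log2 -0.65, SE 0.14, adjusted p = 0.0139), and was at -0.22 in the libraries labelled dKO (SE 0.14, adjusted p = 0.371). The interaction that compares these changes was 0.43 (SE 0.198, unadjusted p = 0.0536, adjusted p = 0.409), so the change with time was not shown to differ. The call in WT was lost without WT 24 h replicate 1 (adjusted p = 0.0511) or 2 (0.0917) and with only the WT libraries fitted (0.153).

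Cd69 (chromosome 6: 129267325 to 129275436, minus strand) was at 109 and 94.2 CPM in libraries labelled dKO at 24 h, against 66.6 and 68.3 CPM in WT. At 48 h it was at 62.7 and 66.6 CPM in the libraries labelled dKO, against 61.0 and 50.2 CPM in WT. The 24 h libraries labelled dKO stood above all 6 others, and the share of all tested genes that separate in this way was not counted. Within each time the genotypes did not overlap, as in 44.9% of all tested genes at 24 h and 56.9% at 48 h. The log2 fold change between genotypes was 0.59 at 24 h (SE 0.151, adjusted p = 0.204), 0.23 at 48 h (SE 0.152, adjusted p = 0.324) and 0.41 over both times (SE 0.107, adjusted p = 0.0474). With time it fell by 0.65 on the log2 scale in the libraries labelled dKO (SE 0.152, adjusted p = 0.0485) and was at -0.29 in WT (SE 0.152, adjusted p = 0.29), with an interaction of -0.37 (SE 0.214, adjusted p = 0.479). Both calls lay near the threshold: leaving out any 1 library labelled dKO or any 1 WT library at 24 h ended them (adjusted p = 0.132 to 0.232 over both times, 0.0747 to 0.358 for time). At 24 h the genotype difference was called without WT 48 h replicate 1 or 2 (0.00854 and 0.00898) and with only the 24 h libraries (0.0472), and at 48 h without WT 48 h replicate 1 (0.0346). Both calls were also lost with RLE factors (0.0522 over both times and 0.0582 for time) and in DESeq2 (0.0697 and 0.0644).

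S1pr1, the exit receptor that CD69 opposes, was scarce, at 8 to 35 counts per library. S1pr1 (chromosome 3: 115710433 to 115715072, minus strand) was at 1.19 and 1.82 CPM in libraries labelled dKO at 48 h, against 1.37 and 1.84 CPM in WT. At 24 h it was at 2.63 and 4.65 CPM in the libraries labelled dKO, against 4.36 and 1.62 CPM in WT. The genotypes overlapped at both times, and replicates at 24 h differed by more than the group means did. Log2 fold changes between genotypes were 0.22 at 24 h (95% interval -0.85 to 1.30, adjusted p = 0.956) and -0.15 at 48 h (-1.37 to 1.08, adjusted p = 0.874). With time they were -1.20 in the libraries labelled dKO (SE 0.529, adjusted p = 0.211) and -0.83 in WT (SE 0.496, adjusted p = 0.349), neither called. Differences of a size inside these intervals were not excluded.

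Ccr9 and Cxcr4 were near the limit of detection. Ccr9, the gut-homing receptor (chromosome 9: 123678439 to 123784330, plus strand), had 1 and 2 counts in the libraries labelled dKO at 48 h, against 2 and 18 counts in WT, that is 0.149 and 0.26 CPM against 0.342 and 0.948 CPM. The ratio of summed counts per effective library size was 0.259 (exact 95% counting interval 0.0492 to 0.872), and the gene was not called (adjusted p = 0.174). At 24 h it had 5 and 9 counts in the libraries labelled dKO, against 15 and 12 in WT, or 0.547 and 1.67 CPM against 2.11 and 1.76 CPM. The libraries labelled dKO lay below those of WT at both times, without overlap; 44.9% of all tested genes at 24 h and 56.9% at 48 h did not overlap in one direction or the other. At 24 h the log2 fold change was -0.94 (SE 0.588, adjusted p = 0.87), and it was -0.21 without dKO 24 h replicate 1 and -1.80 without replicate 2. At 48 h 18 of the 20 WT counts came from replicate 2, and without that library the adjusted p was 0.828. Within the libraries labelled dKO the ratio of 48 h to 24 h was 0.216 (0.0398 to 0.773, 3 against 14 counts), and within WT the log2 fold change was -1.32 (SE 0.558, adjusted p = 0.176), or -2.45 to -1.01 with 1 library left out. GENCODE draws Ccr9 across 105892 bases that share exon bases with Slc6a20a and 2 further annotated transcripts and also span Lztfl1, so its few counts may hold reads of other genes.

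Cxcr4, the CXCL12 receptor (chromosome 1: 128588199 to 128592293, minus strand), had 0 and 4 counts in the libraries labelled dKO at 48 h, 0 and 5 in WT at 48 h, 3 and 1 in those labelled dKO at 24 h, and 1 and 5 in WT at 24 h. These 19 counts give 0 to 0.734 CPM per library, where 3 counts, the level that a count of 0 allows, correspond to 0.158 to 0.558 CPM. No fold change is given, since a difference between groups was not detectable at this depth. Intervals and floors here cover counting error only.

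Of the other chemokine and chemoattractant receptors on the list, 21 of 22 were in the table and 7 passed the filter, among them the inflammatory receptor Ccr2, in the receptor gene cluster of chromosome 9 that holds Cxcr6. Ccr4, a receptor for CCL17 and CCL22, rose with time in the libraries labelled dKO (1.33, SE 0.258, adjusted p = 0.0251) and in WT (1.09, SE 0.271, adjusted p = 0.0293). Ccr2 rose in the libraries labelled dKO at 48 h to 3.27 and 4.29 CPM, against 0.683 and 0.948 CPM in WT (2.11, SE 0.409, adjusted p = 0.0162). These values were 22 and 33 counts, against 4 and 18. Xcr1, the next receptor gene beyond Cxcr6, with Ccr9 on the other side, fell in the libraries labelled dKO at 48 h to 0.298 and 0.65 CPM, against 1.37 and 2.05 CPM in WT (-1.87, SE 0.502, adjusted p = 0.0426). Its values were 2 and 5 counts, against 8 and 39. The lowest, 0.298 CPM, lay below the level of 3 counts in that library, 0.447 CPM.

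Ccr2 also rose with time in the libraries labelled dKO (log2 2.2, SE 0.448, adjusted p = 0.0301), from 9 and 3 counts at 24 h. Without dKO 48 h replicate 1 or 2 the calls of Ccr2 at 48 h and of Ccr2 and Ccr4 for time in the libraries labelled dKO were lost (adjusted p = 0.0785 to 0.289), the time calls also without either dKO 24 h replicate. The call of Ccr4 in WT was lost without either WT 24 h or dKO 48 h replicate (0.0556 to 0.25) with only the WT libraries fitted (0.0904), with library size alone (0.0611) and in DESeq2 (0.0662), and that of Xcr1 without any 1 library but WT 48 h replicate 1 (0.0843 to 0.268). Beside these receptors, the sum of 4 NK and gamma delta T cell markers, of which Eomes is also made by CD8+ effector cells, was 20.2 to 34.4 per 1e6 total counts in the libraries labelled dKO and 9.44 to 21.5 in WT, with Ncr1 at 0 in all libraries. The sum of 5 myeloid markers was 4.47 to 5.06 in the libraries labelled dKO and 4.12 to 11.3 in WT, with Lyz2 at 0 in all libraries. Their part in these levels was not tested.

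**Figure D3:**
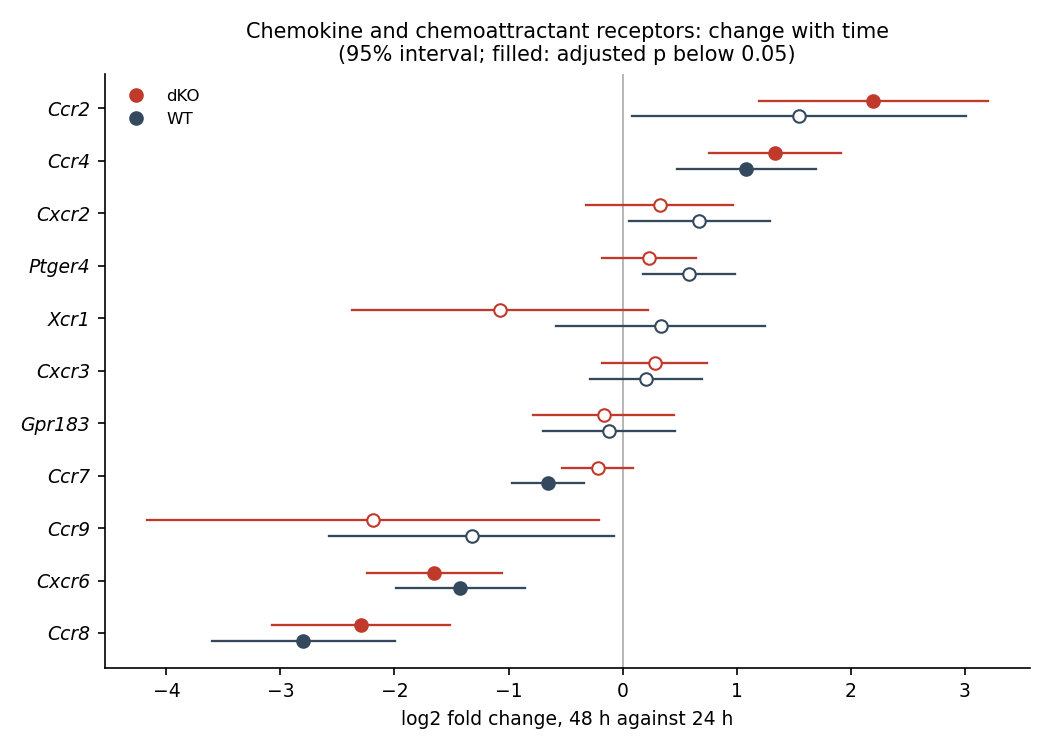
Log2 fold change at 48 h against 24 h, with 95% intervals, of tested chemokine and chemoattractant receptors in the libraries labelled dKO and in WT; filled points have an adjusted p below 0.05. Ccr8 and Cxcr6 lie at the low end and Ccr2 and Ccr4 at the high end in both genotypes; the dKO point of Ccr9 rests on 3 counts.

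Klf2, a gene of the exit pathway outside the chosen 8, fell in the libraries labelled dKO at 48 h. It encodes a factor that drives S1pr1 and was at 4.17 and 4.16 CPM in libraries labelled dKO at 48 h, against 10.1 and 12.0 CPM in WT, and at 11.4 and 15.1 CPM against 22.6 and 16.9 CPM at 24 h. Its log2 fold change between genotypes was -1.42 at 48 h (SE 0.249, adjusted p = 0.0147) and -0.60 at 24 h (SE 0.218, adjusted p = 0.534). With time it fell in the libraries labelled dKO (-1.65, SE 0.253, adjusted p = 0.00881) and in WT (-0.82, SE 0.215, adjusted p = 0.0364).

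Without dKO 48 h replicate 1 or 2 the call of Klf2 at 48 h was lost (adjusted p = 0.137 to 0.191). The call of Klf2 for time was lost in the libraries labelled dKO without any 1 of those 4 libraries (0.051 to 0.136), and in WT without any 1 library but WT 48 h replicate 1 or 2 (0.0511 to 0.25). Of the 7 sphingosine 1-phosphate pathway genes tested beside S1pr1, 0 rose and 1 fell between genotypes at 48 h, which was Klf2. Of all tested genes, 3.19% rose and 8.04% fell there. Among the adhesion genes, Icam1, which encodes an integrin ligand, rose at 48 h (log2 0.59, adjusted p = 0.0361). Itgae, which encodes the alpha E integrin of tissue-resident cells, fell with time in the libraries labelled dKO (-2.48, SE 0.31, adjusted p = 0.00333) and in WT (-1.77, SE 0.27, adjusted p = 0.00264). The call of Icam1 was lost without any 1 library but WT 48 h replicate 1 or 2 (0.0661 to 0.235), and that of Itgae in the libraries labelled dKO without either dKO 48 h replicate (0.0695 and 0.0764). The call of Icam1 was also lost with only the 48 h libraries fitted (0.148) and in DESeq2 (0.0648). The calls of Klf2 and Itgae in WT were lost when only the WT libraries were fitted, and that of Klf2 also in DESeq2 (0.0882).

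Most chemokine genes called with time fell. Of 7 tested ligands, 4 fell and 0 rose in the libraries labelled dKO (Ccl1, Ccl3, Ccl4 and Xcl1), and 4 fell and 1 rose in WT (the same 4 names, and Ccl5). Of all tested genes, 1.88% fell and 1.76% rose with time in the libraries labelled dKO, and 3.5% fell and 7.87% rose in WT. Ccl1, the ligand of CCR8, was at 26.1 and 22.1 CPM in libraries labelled dKO at 48 h, against 4.61 and 4.74 CPM in WT, and at 157 and 147 CPM against 12.8 and 12.9 CPM at 24 h. Its levels separated all 4 groups, and those of Ccr8 separated only the times. The share of all tested genes that separated all 4 groups was not counted. Between genotypes 44.9% did not overlap at 24 h and 56.9% at 48 h, and between times 66.3% in the libraries labelled dKO and 47.1% in WT. Ccl1 rose between genotypes (log2 2.35, SE 0.169, adjusted p = 0.000236 at 48 h, and 3.56, SE 0.157, adjusted p = 3.9e-06 at 24 h), and these calls were kept without any 1 library. The WT time calls of Ccl1, Ccl3, Ccl5 and Xcl1 were lost when only the WT libraries were fitted, that of Xcl1 also without WT 24 h replicate 1 (adjusted p = 0.092), and the dKO time calls of Ccl3, Ccl4 and Xcl1 without any 1 library labelled dKO (adjusted p = 0.051 to 0.202). Of the CXCR3 ligands, Cxcl10 had 63 counts over all libraries and was not called at 48 h (log2 1.94, SE 0.57, adjusted p = 0.0567), and Cxcl9 with 3 and Cxcl11 with 6 counts were not tested.

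**Figure D4:**
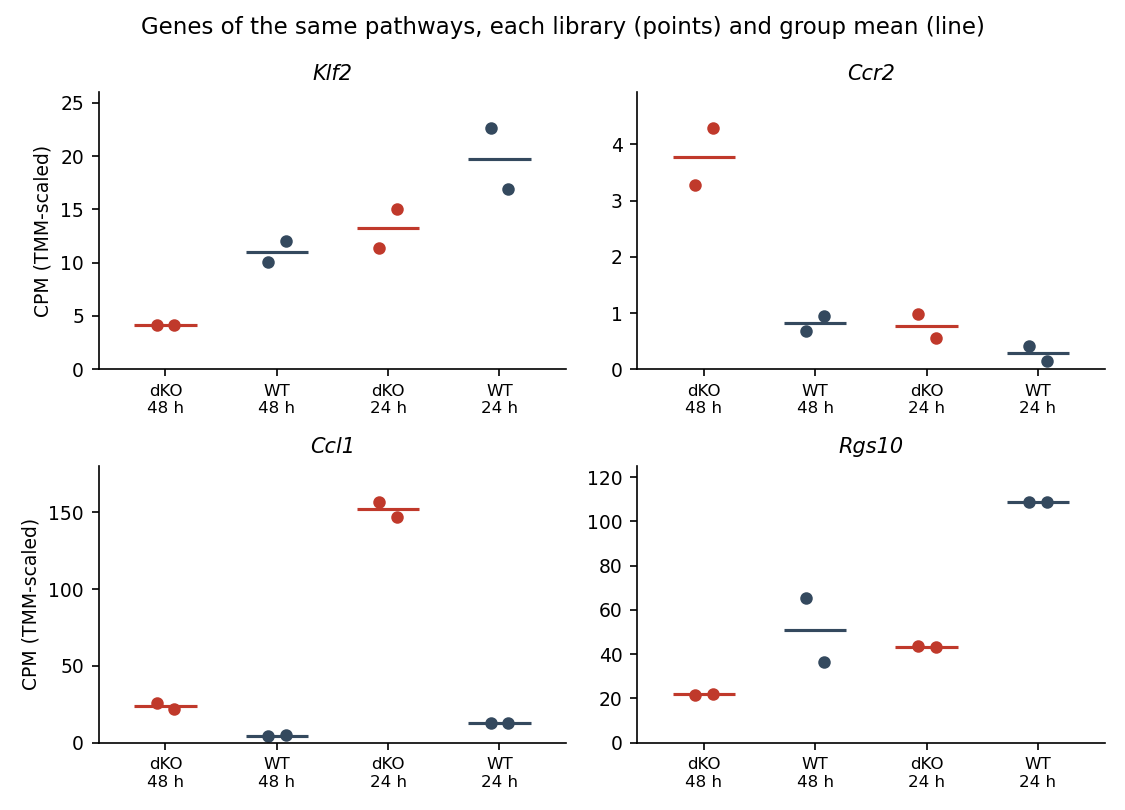
CPM (TMM-scaled, linear axis from 0) of Klf2, Ccr2, Ccl1 and Rgs10 in each library, as points, with group means as lines, for dKO and WT at 48 h and at 24 h. Klf2 and Rgs10 lie lower, and Ccr2 and Ccl1 higher, in the libraries labelled dKO than in WT at both times. Of all tested genes, 44.9% at 24 h and 56.9% at 48 h did not overlap between genotypes. At 24 h only Ccl1 of the genes shown was called.

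Among 17 tested transcription factors tied to homing genes, 3 rose and 3 fell at 48 h in the libraries labelled dKO. Of all tested genes, 3.19% rose and 8.04% fell in that comparison. Batf, Id2 and Nr4a2 rose, and Bach2, Klf2 and Klf3 fell, of which Bach2 (log2 -1.12, SE 0.232, adjusted p = 0.0174) restrains effector differentiation and Id2 (0.87, SE 0.182, adjusted p = 0.0174) promotes it. Beside the same shares of all tested genes, 0 rose and 1 fell at 48 h among 27 tested genes of chemokine receptor signalling. It was Rgs10, a regulator that shortens G protein signals, at 21.4 and 22.2 CPM in the libraries labelled dKO, against 65.4 and 36.3 CPM in WT (-1.20, SE 0.243, adjusted p = 0.0165). With time Rgs16, of the same family, fell in the libraries labelled dKO (-0.94, SE 0.156, adjusted p = 0.0123) and in WT (-1.06, SE 0.157, adjusted p = 0.00261). The calls of Bach2, Id2 and Rgs10 were lost without either dKO 48 h replicate (0.137 to 0.202), that of Bach2 also without dKO 24 h replicate 2 (0.0502), and that of Rgs16 in the libraries labelled dKO without any 1 of those 4 libraries (0.118 to 0.204). With only the groups compared, the calls of Bach2, Id2 and Rgs10 at 48 h and of Rgs16 in WT were lost.

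Scaling moved the split of calls over all tested genes. With library size alone in place of TMM, the median log2 fold change of all genes shifted to -0.36 for time in WT, -0.18 for time in the libraries labelled dKO, and 0.15 for genotype at 48 h. The split at 48 h was 406 higher and 1024 lower with TMM and 1615 higher and 916 lower with library size alone, and over both times 291 and 703 against 680 and 610. For time it was 224 higher and 239 lower against 143 and 596 in the libraries labelled dKO, and 1003 and 446 against 725 and 2641 in WT. Among the 8 genes, library size alone kept the calls of Cxcr3, Cd69, Ccr8, Cxcr6 and Ccr7 and added falls of Cd69 and Ccr9 with time in WT.

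**Figure D5:**
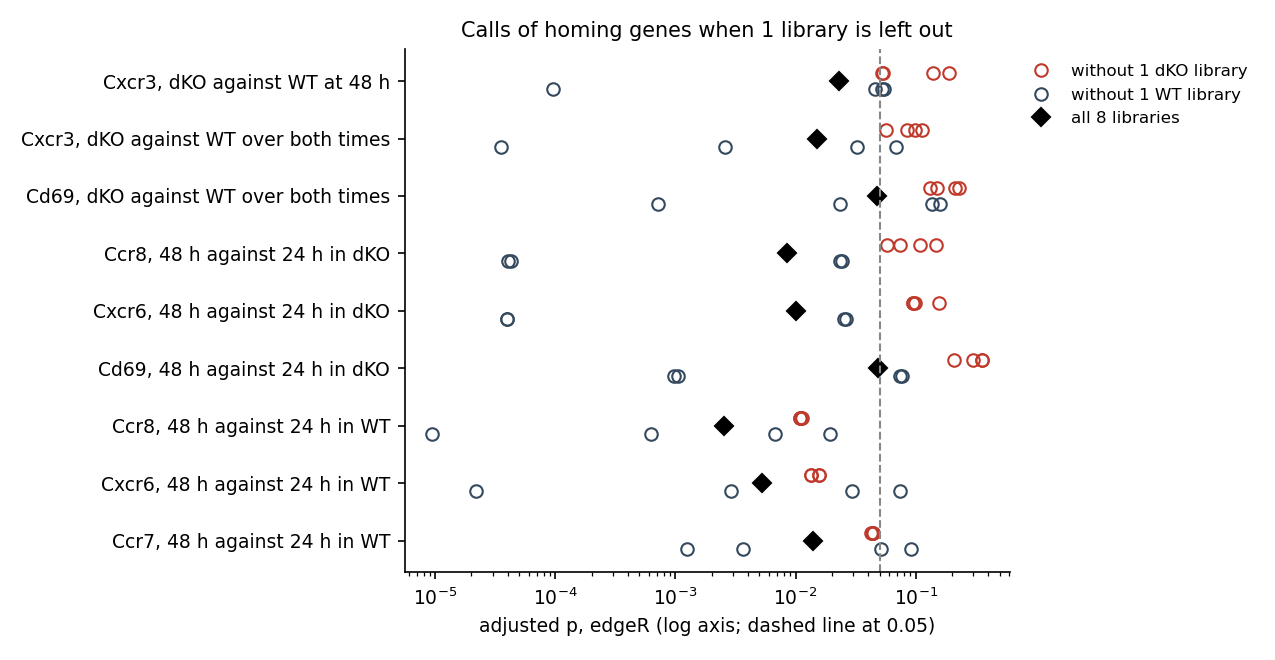
Adjusted p (log axis, dashed line at 0.05) of the 9 calls made on the 8 genes, with all 8 libraries (diamonds) and with 1 library left out (circles, coloured by the genotype of that library). Of the 9 calls only that of Ccr8 for time in WT stays below 0.05 in all 8 such fits.

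The patterns over the 8 libraries most like those of the receptors were found by Pearson's r of log2 CPM among 9972 genes with a mean of at least 20 counts, as a description of libraries that share the same 4 groups. Cxcr3 was followed most closely by Ncaph2, a condensin subunit (r = 0.993), and Ccr8 by Ncs1, a calcium sensor (r = 0.987). For Cxcr6 it was Rnf170, a ubiquitin ligase gene (r = 0.987), and for Ccr7 Tfdp2, a partner of E2F factors (r = 0.975). Cd69 ran closest to Il1a, which encodes interleukin 1 alpha (r = 0.973), and also to Ccl3 (r = 0.961). S1pr1 ran closest to Egr1, an immediate early factor (r = 0.977), and Ccr9 to Tmed8 (r = 0.985).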

How the data were processed

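For each of 8 cultured CD8+ T cell libraries, the deposited values are raw gene counts. The submitters' processing notes name cutadapt 1.18, Bowtie2 2.2.5 and the build mm10, without their roles; no source used here gives the counting program, annotation, strand rule or any use of molecular identifiers. A nameless last entry equalled each column's total (50% of the column sum) and was left out. Totals ran from 5000952 to 21686236 counts. Positions are from GENCODE M21 (GRCm38).

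The members and lists were chosen with earlier results of these data known. Genes named beyond the 8 were Nr4a1, Nr4a2, Klf2, list genes called in some comparison (at most 4 per list and comparison, by p) and the genes most alike in pattern; Batf, Klf3, Ccl4 in WT, Cxcl9, Cxcl10, Cxcl11, Fyco1 and the overlapping genes were named after their values were seen. Some listed genes are not reported here.

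edgeR 4.0.16 (R 4.3.3) fitted all libraries with a mean per group, TMM factors and filterByExpr (minimum count 10, 12742 genes kept), and ran two-sided quasi-likelihood F tests on 6 contrasts. SE was taken as |log2 fold change| divided by √F, and 95% intervals use the t distribution at 4 residual plus 5.76 prior degrees of freedom. The fit was tested on simulated data. Replicates of a group differed by more than sampling noise, most in WT at 48 h. The chi-square per degree of freedom between replicates was 72.1 there, against 2.51 to 17.2 in the other groups. The median absolute log2 difference between replicates was 0.364 there, against 0.149 to 0.195 in the other groups. Alternatives were RLE factors, library size alone, no filter, a mean of at least 50 counts, DESeq2 1.42.0, left-out libraries, only the groups compared and a replicate block.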

Additional observations from a re-analysis of the deposited data

How the results depend on the processing

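Counts of the 8 genes called moved as follows. At 24 h the count was 0 with all libraries, 1 with no filter, 2 with only the groups compared, and 0 to 2 with 1 library left out. At 48 h it was 1, then 0 with only the groups compared and 0 to 3 with 1 library left out. Over both times it was 2, then 1 with RLE factors, with a mean of at least 50 counts, with the replicate block and with DESeq2, and 0 to 5 with 1 library left out. For time in the libraries labelled dKO it was 3, then 5 with only the groups compared and 0 to 3 with 1 library left out. For time in WT it was 3, then 5 with library size alone, 0 with only the groups compared and 1 to 4 with 1 library left out. The interaction count was 0 under all 14 alternatives run.

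Reversed directions concerned uncalled values. Ccr7 at 48 h was -0.014 with a mean of at least 50 counts and -0.050 to 0.13 with 1 library left out. S1pr1 at 48 h was 0.022 with library size alone and -0.50 to 0.16 with 1 library left out, against -0.32 to 1.12 at 24 h and -1.39 to 0.046 for time in WT. Cxcr3 for time in WT was -0.16 with library size alone and -0.041 to 0.48 with 1 library left out. With 1 library left out Cxcr6 ran from -0.22 to 0.026 at 24 h and -0.70 to 0.029 at 48 h, Ccr8 from -0.041 to 1.17 at 48 h and Nr4a1 from -0.033 to 0.92 at 24 h. The cause was not tested, beyond the fewer libraries or genes each fit holds.

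Deviations of same-numbered libraries from their group means correlated at r = -0.076 to 0.172, above 0.1 in 1 of 6 pairs of groups, so the numbers were not taken to pair them. With the replicate block 404 genes were called for time in the libraries labelled dKO, against 463 without it; the block also ended the calls of Cd69 and, at 48 h, of Xcr1 and Icam1. Over all genes, leaving out 1 library gave 13 to 371 calls at 24 h (55 with all), 15 to 6521 at 48 h (1430), 56 to 5606 over both times (994), 32 to 3303 and 595 to 4212 for time in the libraries labelled dKO (463) and in WT (1449), and 0 to 3459 for the interaction (0). No filter gave 206, 2962, 2264, 1649 and 170 calls at 24 h, at 48 h, over both times, for time in the libraries labelled dKO and for the interaction. Only the groups compared gave 181, 444, 4546 and 31 at 24 h, at 48 h and for time in the libraries labelled dKO and in WT. Library size alone gave 2531, 739 and 3366 at 48 h and for time in the libraries labelled dKO and in WT. Depth limits Cxcr4, Ccr9 and S1pr1, which had 19, 64 and 156 counts in all, and also Xcr1 and Ccr2, which had 89 and 93.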
